A study of Mus musculus with 6 samples.

Results

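Cells build cholesterol from acetyl-CoA through mevalonate, squalene and lanosterol, and build fatty acids from the same precursor through acetyl-CoA carboxylase and fatty acid synthase. Transcription of both routes is driven by SREBP factors, which the escort protein Scap carries out of the endoplasmic reticulum when sterols are low and which the Insig proteins hold back when sterols are high. In the cecum these enzymes supply membrane lipid to an epithelium that is continually replaced. The genes described here are 34 enzymes and regulators of these routes. They were listed by symbol, with earlier results of these data known. Of the 34 genes, 33 were matched among 37991 gene identifiers and Hmgcs1 was not, so Hmgcs1 is not analysed here. All 33 passed the filter on low counts. They fall into 5 roles: 6 measured genes of the mevalonate pathway, 11 of squalene and the sterol ring, 5 SREBP regulators, 5 of fatty acid supply and synthesis, and 6 desaturases and elongases.

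RNA came from 3 HBUS mice taken at 60 weeks, each giving 1 serrated polyp of the cecum and 1 piece of normal distal cecum near it (mice 1119, 1192 and 1199, 6 libraries). HBUS mice, polyp and surrounding tissue alike, express HB-EGF, a ligand of the EGF receptor, and US28, a chemokine receptor of viral origin, from transgenes active in the intestinal epithelium. Mice without the transgenes are not part of the comparison. Each sample was whole tissue, so a lower level can mean fewer cells of a type or less RNA per cell, and these cannot be told apart. Levels are in CPM, counts scaled to library size after normalization for library composition. Fold changes are polyp over surrounding tissue with the mouse as a block (n = 3 pairs), ± standard error.

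Total counts ran from 6632645 to 13350119, and mitochondrial rRNA took 46.3% to 75.3% of them. The 33 genes together took 6708 to 22879 counts, which was 0.339% to 0.467% of the counts outside mitochondrial rRNA. The share was higher in the polyp than in the surrounding tissue of all 3 mice, at 0.412% against 0.339% in mouse 1119, 0.467% against 0.449% in mouse 1192 and 0.411% against 0.362% in mouse 1199. The surrounding library of mouse 1199 was the shallowest outside mitochondrial rRNA, with 1852065 counts, and single members there rested on as few as 11 counts (Mvk). Marker genes of other cell types differed between the tissues. Of 10 fibroblast genes 8 rose in polyps, and their summed level was 335 to 748 CPM there and 88.6 to 205 in surrounding tissue. Of 10 smooth muscle genes 2 fell, with summed levels of 24.2 to 85.7 and 205 to 234 CPM. Without the pairing 5 fibroblast genes rose and 1 smooth muscle gene fell.

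Of the 33 tested members, 1 rose and 1 fell in polyps (edgeR quasi-likelihood test, Benjamini-Hochberg adjusted p under 0.05 over 10960 genes). Among all genes tested, 1.72% were called higher and 1.04% lower. The gene that rose was Me1, the malic enzyme of the cytosol, which makes NADPH used in lipid synthesis. The gene that fell was Scd1, the desaturase that makes monounsaturated fatty acids. The 31 other members did not pass, although most sterol enzymes had higher values and most desaturases lower values in polyps. DESeq2 called 1 member higher and 1 lower, and limma-voom 3 and 1. Both directions together, DESeq2 called 492 of the 37991 genes given to it. Limma-voom called 487 of 10960 genes, where edgeR called 303. An unadjusted p under 0.05 was reached by 6 members that were higher and 1 that was lower. The share of all genes under that unadjusted threshold was not counted, so such counts, here and below, carry no background share. The median log2 fold change was 0.26 over the members and -0.02 over all genes tested. Within mice 1119, 1192 and 1199 the members' median log2 difference was 0.17, 0.16 and 0.13. Without mouse 1119, 1192 or 1199 the fitted median over the members was 0.14, 0.17 or 0.16, and neither Me1 nor Scd1 passed without mouse 1119 or without mouse 1199. In all 3 mice 13 of the 33 members were higher in the polyp and 7 were lower, which is 39.4% and 21.2%. Among all genes tested these shares were 19.6% and 18.6%. In 7 members every polyp was above every surrounding sample, and in 0 every polyp was below. The share of all genes separated in this way was not counted. Groups that do not overlap, here and below, therefore carry no background share.

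**Figure D1:**
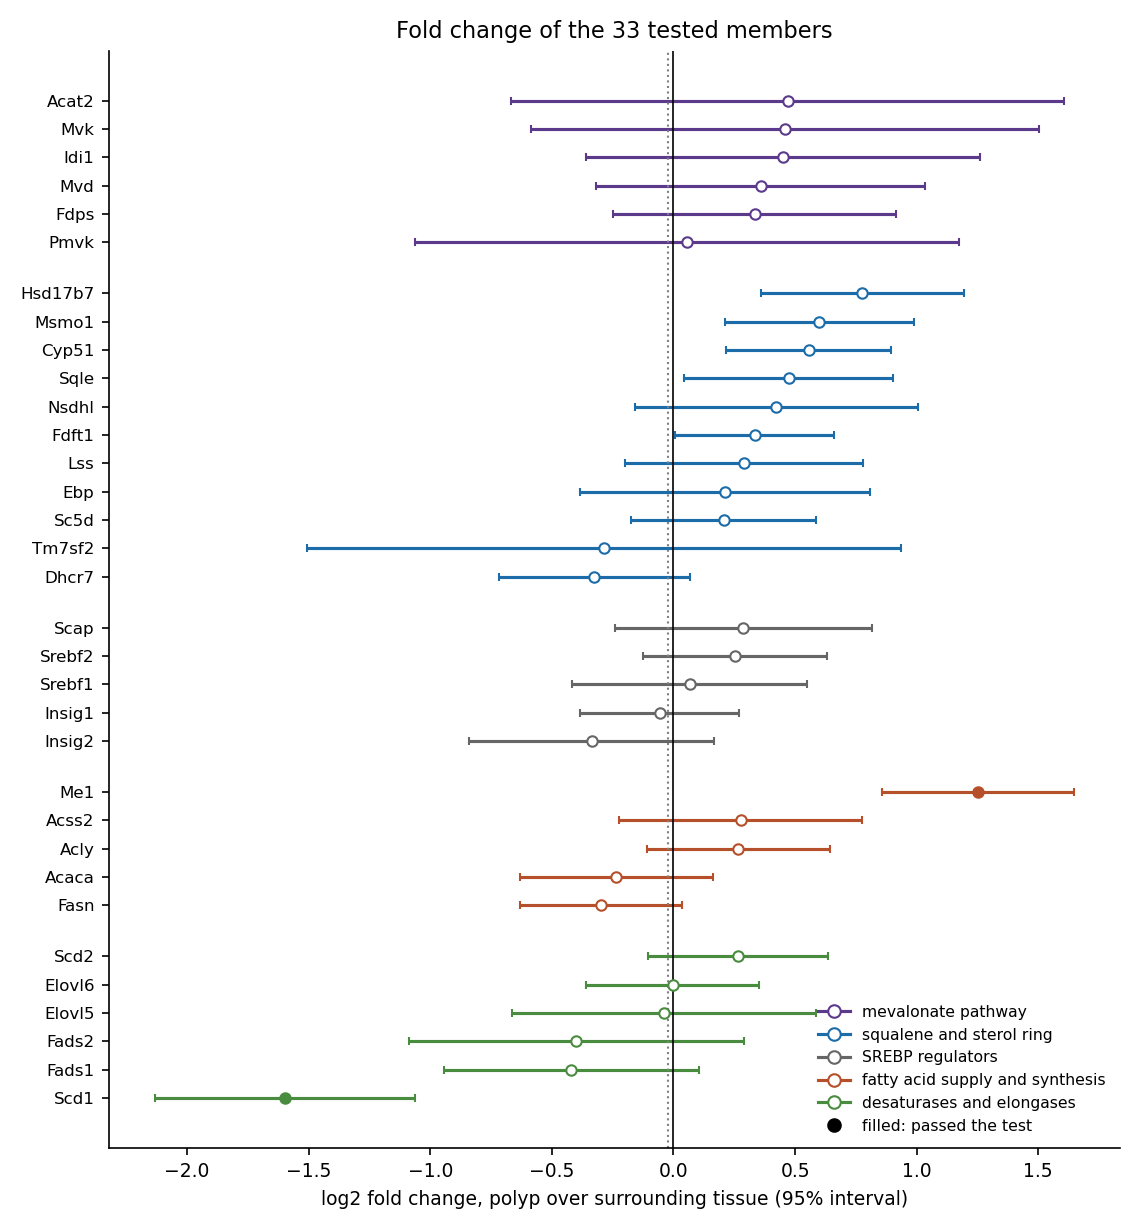
Log2 fold change (polyp over surrounding tissue, x axis) of each of the 33 tested members, by role, with its 95% interval from the edgeR fit on 3 pairs; the dotted line is the median of all genes tested (-0.02). Filled points, Me1 at 1.25 and Scd1 at -1.60, passed the test, and all 6 mevalonate pathway genes lie to the right of 0 with intervals that cross it.

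Scd1 (ENSMUSG00000037071) puts the first double bond into saturated fatty acids. It was measured at 60.7 CPM in the surrounding tissue of mouse 1119, 123.9 in mouse 1192 and 74.4 in mouse 1199. The polyps of the same mice had 15.5, 66.2 and 18.8 CPM. Every polyp was below the tissue around it, but the polyp of mouse 1192 was above the surrounding tissue of mouse 1119, so the groups overlap. The mean went from 86.3 ± 33.2 to 33.5 ± 28.4 CPM (SD, n = 3 mice). Scd1 fell by 1.60 ± 0.24 on the log2 scale, 3.02-fold (95% interval -2.13 to -1.06, adjusted p = 0.0153 by edgeR). Within the mice the surrounding tissue had 3.92, 1.87 and 3.96 times the polyp level, the smallest difference being that of mouse 1192. The call was lost without mouse 1119 (adjusted p = 0.0544), without mouse 1199 (adjusted p = 0.0984) and when the pairing was ignored (adjusted p = 0.492).

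Scd2 (ENSMUSG00000025203), a paralog of Scd1 with the same reaction, was the most abundant member. Its levels were 228, 300.5 and 214 CPM in surrounding tissue and 321, 271 and 292 CPM in polyps, in the order 1119, 1192 and 1199. It was higher in the polyp of 2 mice and lower in mouse 1192, and did not pass (log2 fold change 0.26 ± 0.16, 95% interval -0.11 to 0.64, adjusted p = 0.534 by edgeR). The count ratio of Scd1 to Scd2 within a library, which no scaling touches, was 0.266, 0.412 and 0.348 in surrounding tissue and 0.0482, 0.244 and 0.0642 in polyps. All 3 polyps thus had a lower ratio than any surrounding sample. This ratio was looked at after the values were known and was not tested. Scd1 and Scd2 are related in sequence, and how the counting treated reads that match both is not given in the sources used here.

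Scd1 is also a gene of fat cells, so fat cell markers were read beside it. Of 10 adipocyte markers 6 were tested, all 6 had a negative log2 fold change (median -1.45), and 1 fell (Pck1, an enzyme of glucose and glycerol synthesis that gut epithelium also expresses, log2 fold change -1.88 ± 0.39, adjusted p = 0.0436). Pck1 did not pass without mouse 1119, 1192 or 1199 (adjusted p = 0.163, 0.0813 and 0.226) or without the pairing (adjusted p = 0.115). Their summed level was 32.9, 57.7 and 28.8 CPM in surrounding tissue and 11.1, 31.6 and 20.8 CPM in polyps, in the order 1119, 1192 and 1199. Like Scd1, this sum was highest in mouse 1192 in both tissues and lower in the polyp of every mouse. Fabp4, a fatty acid carrier of fat cells that other cells also express, had 7.20, 14.3 and 5.41 CPM in surrounding tissue and 1.09, 9.79 and 1.42 CPM in polyps, lower in each polyp without passing (log2 fold change -1.60 ± 0.49, adjusted p = 0.154). Fabp4 too was highest in mouse 1192 in both tissues, as were 12 of the 33 members. The share of all genes with that order was not counted. Of the other tested markers, Plin4 was lower in the polyp of all 3 mice, and Cidec, Cfd and Lipe were higher in the polyp of 1 mouse each. The 4 markers too low to test were at or near 0: the adiponectin gene Adipoq was listed at 1.04, 3.20 and 0 CPM in surrounding tissue and 0, 1.64 and 0 CPM in polyps, and Plin1, Retn and Lep were all at or under 1.92 CPM in every sample. In mouse 1199, where 1 count is worth 0.225 CPM in surrounding tissue, Adipoq and Plin1 had no counts in either sample. Fabp4 in that mouse was 3.80 times higher in the surrounding tissue. Of 10 markers of absorptive colonocytes 5 fell, with a median log2 fold change of -1.13 and summed levels of 8361 to 12149 CPM in surrounding tissue and 5419 to 8818 in polyps. Most of that sum is the carbonic anhydrase gene Car1, which did not pass. In mouse 1192 Car1 had 6587 CPM in surrounding tissue and 7755 in the polyp, while the median log2 difference of the 10 markers in that mouse was -0.57. In mice 1119 and 1199 that median was -1.71 and -1.19, and 8 of the 10 markers were lower in the polyp of all 3 mice. Without the pairing 3 of the 10 fell. The part of either cell type in the Scd1 difference was not tested.

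**Figure D2:**
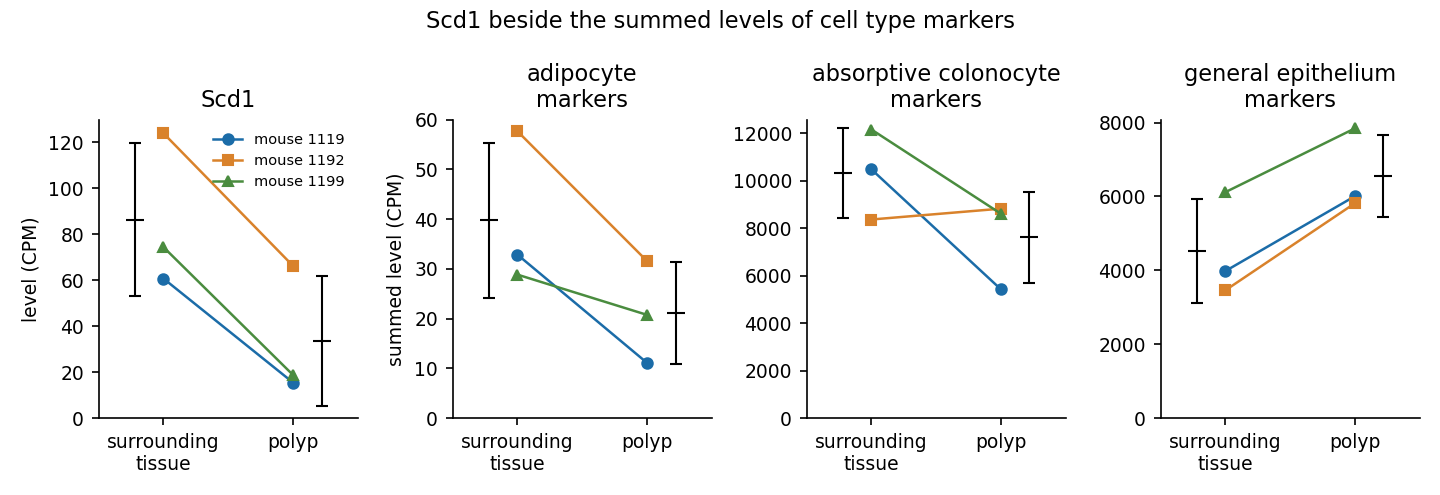
Level of Scd1 and summed level of the adipocyte, absorptive colonocyte and general epithelium markers (y axes, CPM) in surrounding tissue and polyp of each mouse; lines join the samples of a mouse and bars give the mean ± SD of 3 mice. Scd1 and the adipocyte sum are highest in mouse 1192 (123.9 and 57.7 CPM in surrounding tissue) and lower in each polyp, and the general epithelium sum is higher in each polyp.

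The other enzymes of this role did not pass (edgeR, 0 called beside Scd1). The desaturases of polyunsaturated fatty acids, Fads1 and Fads2, were lower in the polyp of all 3 mice. Fads1 had 17.2, 29.8 and 12.2 CPM in surrounding tissue and 11.8, 21.3 and 10.5 CPM in polyps (log2 fold change -0.42 ± 0.23, adjusted p = 0.475). Fads2 had 9.38, 14.1 and 6.76 CPM and 6.89, 12.1 and 4.55 CPM (log2 fold change -0.40 ± 0.30, adjusted p = 0.621). For both genes mouse 1192 was the highest in each tissue and the groups overlap. Neither elongase gene passed: Elovl6, which extends palmitate, had a 95% interval of -0.36 to 0.35, and Elovl5, which extends polyunsaturated chains, one of -0.66 to 0.59. Over the 6 desaturases and elongases the median log2 fold change was -0.22, and 3 were lower in the polyp of all 3 mice.

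Me1 (ENSMUSG00000032418) turns malate into pyruvate and yields NADPH. It had 24.2, 27.4 and 29.1 CPM in surrounding tissue and 70.6, 56.8 and 65.1 CPM in polyps, in the order 1119, 1192 and 1199. The groups do not overlap, and within the mice the polyp had 2.91, 2.07 and 2.24 times the surrounding level. The mean went from 26.9 ± 2.45 to 64.2 ± 6.93 CPM (SD, n = 3 mice), the log2 fold change was 1.25 ± 0.17 (2.38-fold, 95% interval 0.86 to 1.65) and edgeR gave adjusted p = 0.0130. Me1 passed under 11 of 13 other settings, including the one without the pairing (adjusted p = 0.0280). It did not pass without mouse 1119 (adjusted p = 0.0620) or without mouse 1199 (adjusted p = 0.0749), with log2 fold changes of 1.10 and 1.28.

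Me1 is known as a target of the oxidative stress factor NRF2 as well as of lipid synthesis regulators, and its promoter is shown with the letters of the antioxidant response element, TGACNNNGC, in capitals. The window is the outermost of 2 for this gene in the RefSeq table of build GRCm38.p6, chr9:86695865-86696164 on the minus strand, written 5′ to 3′ from 250 bases before the start site to 50 after it. The motif was chosen after the values were seen and was found once on the printed strand, starting 6 bases before the start site. Of all 32851 promoter windows of this length, 12.4% hold the motif on either strand. Of the 37 windows of members it was in 16.2%, from 6 of 28 genes. These were Acss2, Dhcr7, Hsd17b7, Me1, Mvk and Pmvk, and Me1 alone of them was called. The other Me1 window does not hold the motif. A part of NRF2 in the Me1 difference was not tested.
Me1: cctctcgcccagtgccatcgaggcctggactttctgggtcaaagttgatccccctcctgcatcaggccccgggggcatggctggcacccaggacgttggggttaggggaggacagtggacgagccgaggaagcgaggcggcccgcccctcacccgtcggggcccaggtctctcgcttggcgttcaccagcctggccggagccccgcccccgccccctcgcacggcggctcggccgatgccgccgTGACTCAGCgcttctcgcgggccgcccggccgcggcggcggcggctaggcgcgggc

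The other genes of fatty acid supply and synthesis did not pass. Acly, which splits citrate into acetyl-CoA, had 38.9, 48.9 and 40.6 CPM in surrounding tissue and 56.0, 54.5 and 43.9 CPM in polyps, higher in the polyp of every mouse with overlapping groups (log2 fold change 0.27 ± 0.17, adjusted p = 0.536). Acaca, the acetyl-CoA carboxylase that commits carbon to fatty acids, had 45.7, 48.1 and 36.5 CPM and 31.8, 43.1 and 36.1 CPM (log2 fold change -0.23 ± 0.17, adjusted p = 0.616). Fasn (ENSMUSG00000025153), the synthase itself, had 107, 122 and 88.1 CPM and 81.0, 91.8 and 84.0 CPM (log2 fold change -0.30 ± 0.15, 95% interval -0.63 to 0.03, adjusted p = 0.409). Acaca and Fasn were lower in the polyp of all 3 mice, by little in mouse 1199, and each had overlapping groups. Acss2, which makes acetyl-CoA from acetate, was at 0.28 ± 0.22. Its levels set mouse 1192 apart in both tissues, with 25.3 CPM in surrounding tissue and 30.7 in the polyp against 11.0 to 15.5 in the other mice. Me1 was the only gene of the 5 in this role that edgeR called. The count ratio of Me1 to Acly was 0.623, 0.560 and 0.717 in surrounding tissue and 1.26, 1.04 and 1.48 in polyps, again a ratio chosen after the values were seen.

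**Figure D3:**
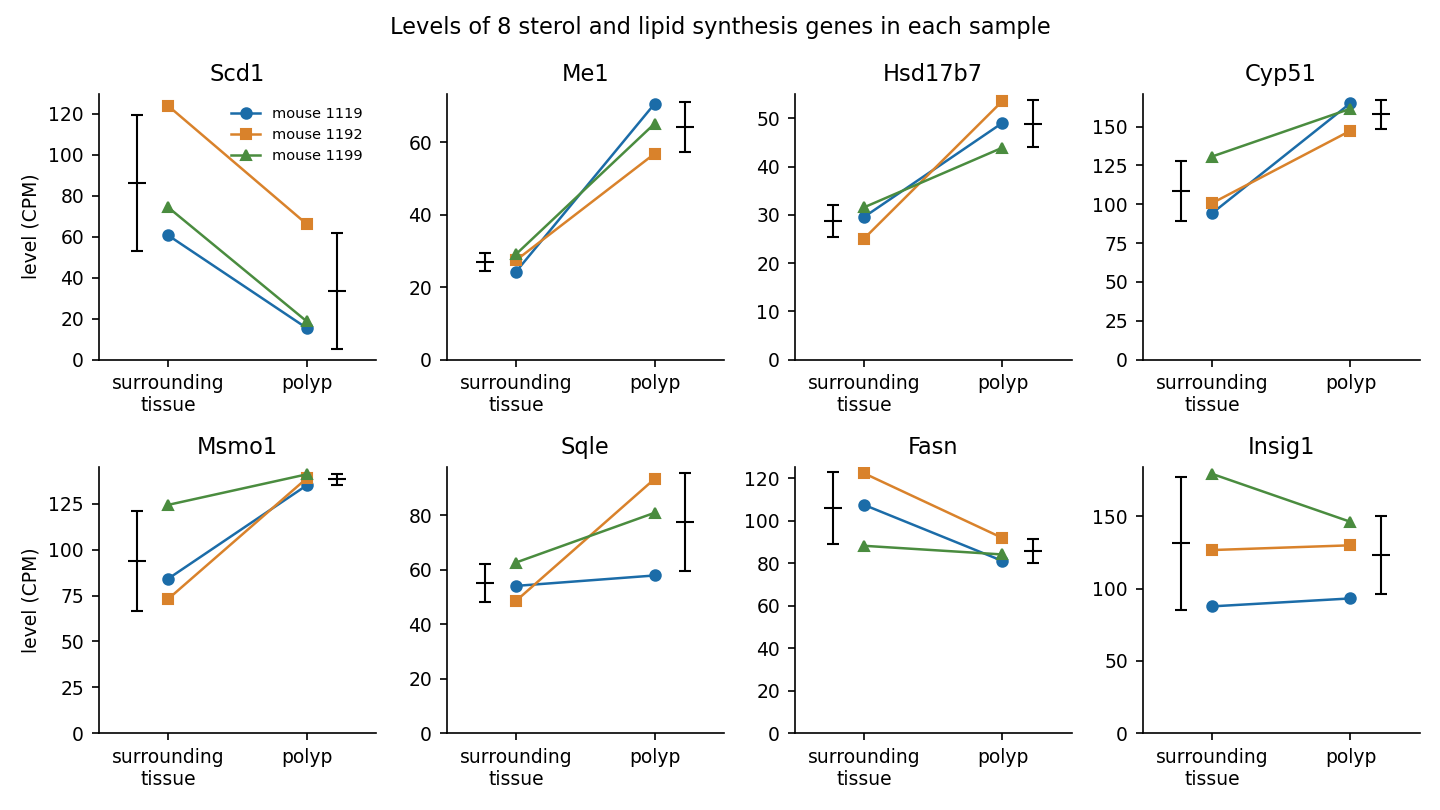
Levels in CPM (y axes, from 0) of 8 members in surrounding tissue and polyp; lines join the samples of a mouse, and bars beside them give the mean ± SD of 3 mice. Me1, Hsd17b7, Cyp51 and Msmo1 have every polyp above every surrounding sample, while Scd1 is lower in each polyp with mouse 1192 high in both tissues.

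In the sterol branch, 9 of 11 genes from squalene onward had a positive log2 fold change (median 0.33), and 7 were higher in the polyp of all 3 mice, but edgeR called 0 of 11. Among all genes tested, 48.4% had a positive log2 fold change and 19.6% were higher in the polyp of all 3 mice. Of the 11, DESeq2 called 0 and limma-voom 2, and 5 had an unadjusted p under 0.05. Over all 10960 genes limma-voom called 487, both directions together. The genes with the smallest p, Hsd17b7, Cyp51 and Msmo1, act in the removal of methyl groups from the lanosterol ring. Hsd17b7 (ENSMUSG00000026675) had 29.6, 25.1 and 31.6 CPM in surrounding tissue and 49.1, 53.6 and 43.9 CPM in polyps, with no overlap of the groups. Its mean went from 28.7 ± 3.32 to 48.9 ± 4.84 CPM (log2 fold change 0.78 ± 0.18, 95% interval 0.36 to 1.19, adjusted p = 0.0712 by edgeR). It passed under 3 of 13 other settings, with adjusted p between 0.00570 and 0.238. The interval of a single gene carries no correction for the number of genes tested, so it can leave out 0 where the adjusted p does not pass.

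Cyp51 (ENSMUSG00000001467), the lanosterol demethylase, had 94.1, 100.7 and 130.7 CPM in surrounding tissue and 165, 147 and 162 CPM in polyps. The groups do not overlap (log2 fold change 0.56 ± 0.15, 95% interval 0.22 to 0.90, adjusted p = 0.107 by edgeR). Msmo1 (ENSMUSG00000031604), a methylsterol monooxygenase, had 84.1, 73.1 and 124 CPM and 135, 139 and 141 CPM, and these groups do not overlap either (log2 fold change 0.60 ± 0.17, 95% interval 0.21 to 0.99, adjusted p = 0.126 by edgeR). Polyp levels of Msmo1 lay close together, and its surrounding levels were spread. Cyp51 passed under 2 of 13 other settings and Msmo1 under 1. Sqle, the squalene epoxidase and a slow step of the route, had 54.1, 48.6 and 62.7 CPM and 57.9, 93.4 and 80.9 CPM (log2 fold change 0.47 ± 0.19, adjusted p = 0.288). The polyp of mouse 1119 was within the range of the surrounding samples.

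Promoter windows of these 3 genes are printed because SREBP binds sterol elements beside NF-Y, a factor that recognises CCAAT. The letters of CCAAT on either strand are in capitals (ATTGG is the other strand). All are RefSeq windows of GRCm38.p6 on the minus strand, 5′ to 3′, from 250 bases before the start site to 50 after: Hsd17b7 at chr1:169969156-169969455, Cyp51 at chr5:4104648-4104947 and Msmo1 at chr8:64733529-64733828. They were chosen after the values were seen.
Hsd17b7: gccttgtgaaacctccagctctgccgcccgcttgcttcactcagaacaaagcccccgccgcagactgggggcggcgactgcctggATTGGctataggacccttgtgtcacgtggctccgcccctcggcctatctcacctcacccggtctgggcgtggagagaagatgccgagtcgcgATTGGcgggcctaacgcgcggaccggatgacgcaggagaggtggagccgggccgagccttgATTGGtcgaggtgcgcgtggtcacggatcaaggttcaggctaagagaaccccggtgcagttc
Cyp51: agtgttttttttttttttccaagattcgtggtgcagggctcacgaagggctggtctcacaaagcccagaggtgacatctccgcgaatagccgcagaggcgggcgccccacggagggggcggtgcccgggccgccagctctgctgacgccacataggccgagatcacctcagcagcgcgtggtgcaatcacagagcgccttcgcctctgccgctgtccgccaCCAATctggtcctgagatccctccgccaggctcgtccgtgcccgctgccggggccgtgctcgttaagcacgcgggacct
Msmo1: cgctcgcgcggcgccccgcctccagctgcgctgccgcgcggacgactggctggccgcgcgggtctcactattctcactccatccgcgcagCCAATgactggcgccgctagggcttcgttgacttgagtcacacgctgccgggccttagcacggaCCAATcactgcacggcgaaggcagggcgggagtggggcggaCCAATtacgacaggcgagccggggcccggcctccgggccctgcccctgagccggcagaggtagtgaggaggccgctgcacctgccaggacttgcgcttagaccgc

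The CCAAT letters occur 3 times in the Hsd17b7 window, once in that of Cyp51 and 3 times in that of Msmo1. RefSeq windows matched 28 of the 34 genes. The match failed for Fdps, Fdft1, Sqle, Scd1, Scd2 and Fads1. CCAAT was in the windows of 23 of the 28 genes (64.9% of their 37 windows, 37.4% of all 32851 windows), and the GC box GGGCGG was likewise in those of 23 (73.0% and 35.7% of windows). The E-box CACGTG was in those of 6 genes (18.9% and 7.15% of windows). The sterol element letters TCACNCCAC were in the window of 1 gene, Hmgcs1, and in 1.24% of all windows. A gene can have several windows, and a match describes letters only.

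Among the other sterol ring genes, Fdft1 (squalene synthase) was measured at 52.1 to 61.5 CPM in surrounding tissue and 63.0 to 81.1 CPM in polyps, without overlap (log2 fold change 0.33 ± 0.14, adjusted p = 0.335). Nsdhl, another enzyme of methyl removal, was at 0.42 ± 0.26, and the lanosterol synthase gene Lss at 0.29 ± 0.21. The isomerase gene Ebp and the desaturase gene Sc5d were both at 0.21. Below 0 were Dhcr7, the enzyme of the last step to cholesterol, and Tm7sf2, a sterol reductase. Dhcr7 had 41.4, 53.8 and 31.1 CPM in surrounding tissue and 28.9, 41.9 and 29.4 CPM in polyps, lower in the polyp of every mouse with overlapping groups (log2 fold change -0.33 ± 0.17, 95% interval -0.72 to 0.07, adjusted p = 0.458). Tm7sf2 had 15 to 76 counts per library, and its interval ran from -1.51 to 0.93. In the annotation the exons of Fdft1 overlap those of Ctsb by 774 bases and the exons of Cyp51 overlap those of Akap9 by 166 bases on the opposite strand, and those of Tm7sf2 overlap Vps51 by 532 bases on the same strand. Overlaps with other counted genes also exist for Scap (985 bases), Acss2 (927), Lss (381), Srebf1 (109), Scd2 (61) and Me1 (30). That of Scd2 is on the same strand and the others are on the opposite strand. Whether the counting used strand and how it treated reads in shared exons are unknown here, so the overlaps may affect these counts.

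The mevalonate genes were low, 2.48 to 24.4 CPM in any sample, and none of the 6 passed (edgeR; 0 by DESeq2, 0 by limma-voom and 0 at an unadjusted p under 0.05). Of all genes tested, 48.4% had a log2 fold change above 0. Each of the 6 mevalonate genes did, and their median was 0.41. Without mouse 1119 the median was 0.18, and without mouse 1192 it was 0.26. Within mice 1119, 1192 and 1199 it was 0.53, 0.34 and 0.08. The prenyl synthase gene Fdps had 12.1, 18.2 and 21.4 CPM in surrounding tissue and 20.9, 24.4 and 18.2 CPM in polyps (0.33 ± 0.26). The isomerase gene Idi1 had 5.49, 7.76 and 6.76 CPM and 9.67, 12.8 and 5.55 CPM (0.45 ± 0.36). Both were higher in the polyps of mice 1119 and 1192 and lower in that of mouse 1199. The decarboxylase gene Mvd had 12.0, 9.26 and 12.2 CPM and 12.3, 17.9 and 12.7 CPM (0.36 ± 0.30), so most of its difference came from mouse 1192. The mevalonate kinase gene Mvk had 4.17, 3.63 and 2.48 CPM and 5.20, 4.44 and 4.41 CPM (0.46 ± 0.46). Mvd and Mvk had every polyp above every surrounding sample, by narrow margins. The thiolase gene Acat2 went different ways, with polyp over surrounding ratios of 2.24, 0.486 and 2.37, and the kinase gene Pmvk was at 0.06 ± 0.49. The interval of Pmvk, from -1.06 to 1.17, spans a 2-fold change in either direction, so such a change is not excluded.

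None of the 5 regulators passed in edgeR, DESeq2 or limma-voom, and 0 had an unadjusted p under 0.05. Srebf2, which encodes the factor tied most closely to cholesterol synthesis, had 72.7, 80.3 and 64.9 CPM in surrounding tissue and 67.5, 102.6 and 92.7 CPM in polyps (log2 fold change 0.25 ± 0.17, adjusted p = 0.565). Srebf1, tied to fatty acid synthesis, was at 20.5 ± 3.92 and 21.3 ± 0.848 CPM (0.07 ± 0.21, 95% interval -0.42 to 0.55). Scap had 19.2, 20.3 and 12.8 CPM and 19.8, 22.7 and 20.9 CPM (0.29 ± 0.23, adjusted p = 0.646). Insig1, which is itself induced by SREBP and serves as a readout of it, had 87.7, 126.7 and 179 CPM and 93.2, 130 and 146 CPM (log2 fold change -0.06 ± 0.14, 95% interval -0.38 to 0.27, adjusted p = 0.899). Its spread between mice, from 87.7 to 179 CPM in surrounding tissue, was larger than any difference between the tissues of a mouse. Insig2 had 24.7, 20.5 and 30.2 CPM and 21.0, 12.1 and 30.0 CPM (log2 fold change -0.34 ± 0.22, adjusted p = 0.564), lower in each polyp by amounts from almost none in mouse 1199 to 1.70-fold in mouse 1192.

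**Figure D4:**
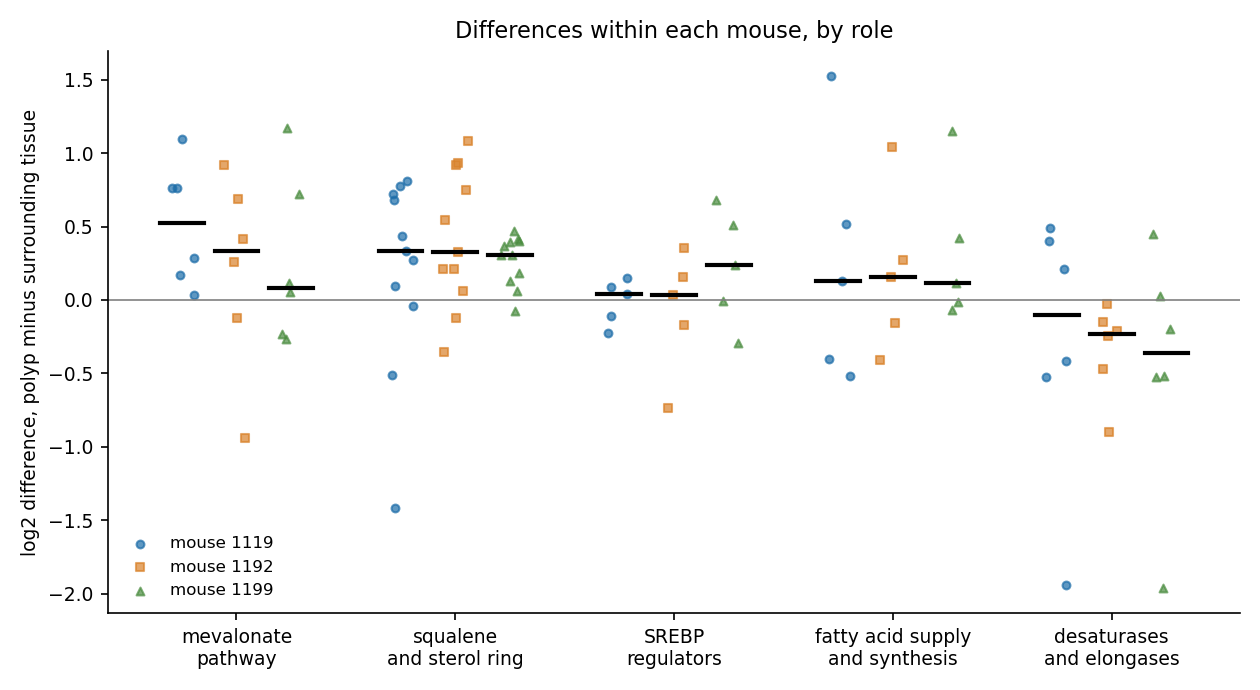
Log2 difference (polyp minus surrounding tissue, y axis, with 0.5 CPM added to each level) of each member within each mouse, by role; points are genes and black bars the median of a mouse. Medians of the squalene and sterol ring genes lie between 0.31 and 0.34 in all 3 mice, and those of the desaturases and elongases between -0.36 and -0.10.

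Levels were also divided by exon length (CPM per kilobase of all annotated exons of a gene together). On this scale Scd2 and Insig1 stood highest in both tissues, at 45.3 and 42.4 in surrounding tissue and 54.0 and 39.8 in polyps. Cyp51 followed with 24.6 and 35.8. The fourth was Scd1 in surrounding tissue, at 17.6, and Msmo1 in polyps, at 22.5. Tm7sf2, Mvk and Acss2 were lowest in surrounding tissue, between 1.11 and 1.65. The annotated exons of Acss2 together span 10163 bases, and this length enters its value. Mice differed as well as tissues. Mouse 1192 had the highest surrounding level of 18 of 33 members and the highest polyp level of 18, and it was the highest in both tissues for 12. Among desaturases and elongases it held the highest surrounding level for 5 of 6. These counts were not tested. The share of all genes that were highest in mouse 1192 was not counted, so they carry no background share.

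Of 10 general epithelial markers 3 rose and 0 fell, with a median log2 fold change of 0.35, and 0 passed without the pairing. Of these markers 6 were higher in the polyp of all 3 mice and 1 was lower in all 3, the transcription factor gene Cdx1 (-0.59 ± 0.18, adjusted p = 0.158). The keratin genes Krt18, Krt19 and Krt8 rose by 1.57, 0.73 and 0.71 on the log2 scale (adjusted p = 0.0102, 0.0419 and 0.0467), and the E-cadherin gene Cdh1 was at 0.64 ± 0.16 without passing (adjusted p = 0.0867). Their summed level was 3461 to 6116 CPM in surrounding tissue and 5818 to 7843 in polyps. The sum of the 11 sterol ring genes was 464 to 554 CPM in surrounding tissue and 633 to 675 in polyps. The part of epithelial content in the sterol values was not tested. Of 10 genes of proliferating cells 0 passed (1 with an unadjusted p under 0.05, 0 by DESeq2 and limma-voom), with a median of -0.45. Within mice 1119, 1192 and 1199 their median log2 difference was 0.18, -0.49 and -0.39. Of 8 tested macrophage and neutrophil genes 0 passed (2 with an unadjusted p under 0.05, 0 by DESeq2 and limma-voom), with a median of 0.68.

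Beyond the 34 genes, 5 lists of neighbouring steps were read. In the list of acyl-CoA synthetases and triglyceride synthesis 1 of 16 tested genes rose and 0 fell (median log2 fold change 0.09). The gene was Dgat2, which adds the last acyl chain of triglyceride. It had 79.4, 69.9 and 125.8 CPM in surrounding tissue and 175, 156 and 196 CPM in polyps, without overlap (log2 fold change 0.98 ± 0.16, adjusted p = 0.0174 by edgeR). Dgat2 did not pass without any 1 of the mice (adjusted p = 0.0862, 0.0563 and 0.0508 without 1119, 1192 and 1199) or without the pairing (adjusted p = 0.0972). Dgat1, an unrelated enzyme of the same reaction, had 20.4, 17.5 and 15.8 CPM and 9.31, 7.07 and 13.2 CPM, lower in each polyp without passing (-0.91 ± 0.30, adjusted p = 0.181). Agpat2 was at 0.91 ± 0.25 and Acsl5 at 0.62 ± 0.18 (adjusted p = 0.122 and 0.143).

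In the other 4 lists edgeR, DESeq2 and limma-voom each called 0 genes. Of 12 tested genes of the elongation cycle and citrate export 2 had an unadjusted p under 0.05, both higher, with a median of 0.13: Hsd17b12, a reductase of the cycle, at 0.61 ± 0.18 and Elovl1 at 0.48 ± 0.18. Of 12 tested genes of cholesterol uptake, efflux and storage 3 did, with a median of -0.03. These were Nceh1, a cholesterol ester hydrolase (-0.88 ± 0.22), the sterol exporter gene Abca1 (0.86 ± 0.33) and Npc2, a lysosomal sterol carrier (0.59 ± 0.24). Npc1l1, Abcg5, Abcg8 and Soat2 of that list were too low to test. Of 10 genes that process SREBP or degrade sterol-regulated proteins 2 did, Erlin1 (-0.55 ± 0.16) and Sec24d (0.62 ± 0.25), with a median of -0.04. Of 11 genes of the isoprenoid branches 0 did, with a median of 0.13.

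**Figure D5:**
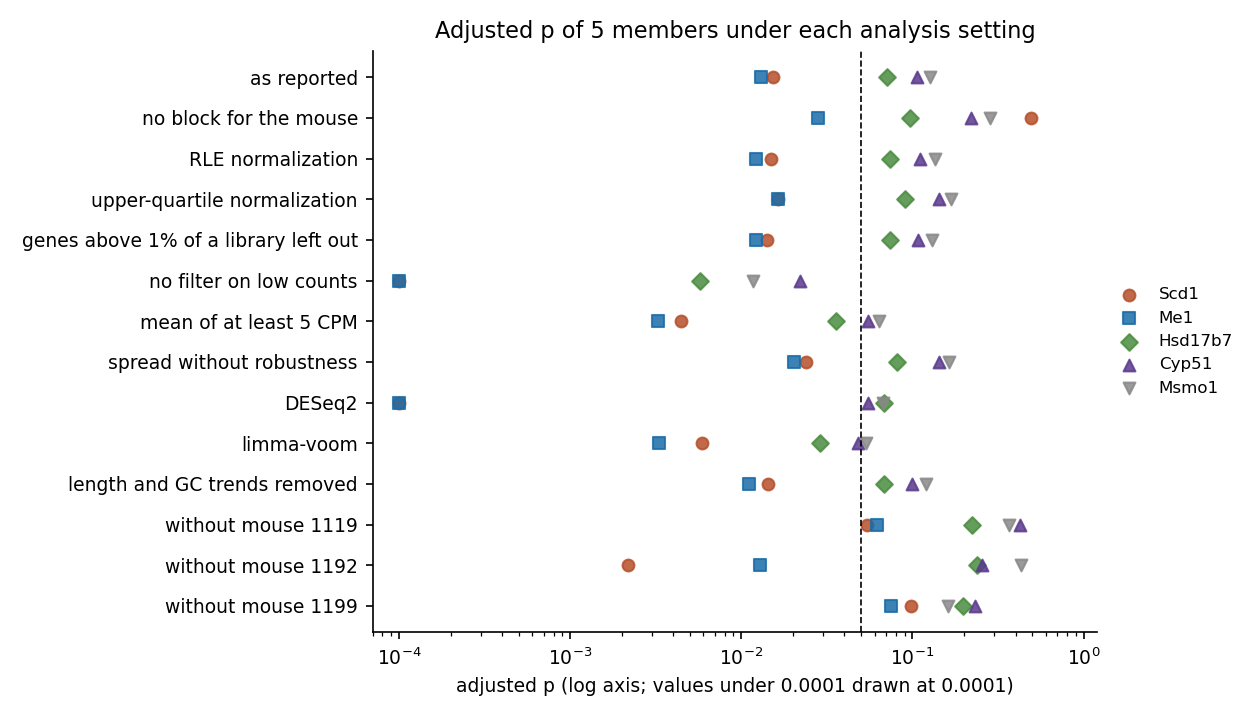
Adjusted p (x axis, log scale; values under 0.0001 drawn at 0.0001) of 5 members as reported and under 13 other settings (y axis), with the threshold of 0.05 dashed. Scd1 and Me1 lie left of the line under 10 and 11 of the 13 settings, and Hsd17b7, Cyp51 and Msmo1 under 3, 2 and 1.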

How the data were processed

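RNA was sequenced from 6 cecum samples of 3 mice. The authors deposited raw gene counts, 1 table per sample, not normalized, per the file headers. The submitters' processing notes name the tools TopHat2 2.0.7, Bowtie 0.12.9 and HTSeq 0.5.3p9. How these were set, and which build and annotation they used, is not given in the sources used here. Per the labels' protocols, RNA went through a kit that enriches bacterial RNA by depleting host RNA and an rRNA removal kit, so the counts cover mouse RNA left after depletion. Its effect on single genes was not tested. Symbols, exon lengths and overlaps came from GENCODE M21, which named 32919 of 37991 identifiers.

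All genes were fitted with edgeR 4.0.16 (R 4.3.3; robust quasi-likelihood, TMM, filterByExpr at a minimum count of 10, 10960 genes, Benjamini-Hochberg adjusted p under 0.05, two-sided), with the mouse as a block, since the title number is the animal. The common coefficient of biological variation was 34.3%, with 2 residual degrees of freedom. Deviations from the mean of each tissue correlated at 0.0719, 0.127 and 0.159 between the samples of the same mouse. Between a polyp and the surrounding tissue of different mice they correlated at -0.120 to -0.00294. TMM factors ran from 0.593 to 1.43, and 1 count was worth 0.0712 to 0.225 CPM. The procedure was run on simulated counts drawn with the common coefficient of variation for every gene. That run does not show that single calls hold in these data. Other settings used DESeq2 1.42.0 and limma 3.58.1 among others. Values in every sample are given for called members and for the 4 smallest p in each role. In other lists a few genes with the smallest p are named, and few of them have values in every sample. Dgat1 and some marker genes are named outside this rule. Members and lists were chosen with earlier results of these data known.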

Additional observations from a re-analysis of the deposited data

How the results depend on the processing

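Under 13 other settings (the one that removes length and GC trends was added after seeing the data) 27 of the 33 members kept the sign of their log2 fold change wherever they were tested; Mvk, Pmvk and Tm7sf2 were tested under 12, since they fall below a mean of 5 CPM. Pmvk, Tm7sf2, Srebf1, Insig1, Elovl5 and Elovl6 changed sign under at least 1. Without the block for the mouse (no replicate block, unpaired) 87 genes were called in place of 303, with 1 member higher and 0 lower. Without a filter on low counts 753 genes were called and 4 members were higher, the added ones being Cyp51, Hsd17b7 and Msmo1. With a mean of at least 5 CPM 2 members were higher, and limma-voom called 487 genes with 3 members higher. DESeq2 called 492 genes. Leaving out 1 mouse gave 83 to 281 genes, 0 to 1 member higher and 0 to 1 lower, and without mouse 1119 or 1199 no member was called. The members' median of 0.26 became 0.23 with upper-quartile normalization, 0.24 with limma-voom and 0.14 to 0.17 with a mouse left out. The cause of these shifts was not tested, beyond the loss of samples when a mouse is left out. Depth limits genes with few counts, such as Mvk with 11 to 54, Pmvk with 15 to 51 and Tm7sf2 with 15 to 76 counts per library.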
